A study of Mus musculus with 18 samples.

Results

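Meg3, Rian, Mirg and Dlk1 are transcribed from the imprinted Dlk1-Dio3 domain on mouse chromosome 12, and their RNA levels are given here in 6 lines of mouse pluripotent stem cells. The genes were taken as all probe sets to which the array annotation gives one of these symbols and no other, which were 19 of 34945 probe sets with a single symbol. Meg3 had 11 of them, Rian 4, Mirg 2 and Dlk1 2. They stand for 4 of the 18193 genes measured. Their levels in these lines were already known when the genes were chosen, so they are given below as a description, with no test.

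Total RNA was hybridised to Affymetrix expression arrays, with 3 arrays for each line and 18 in all, which the design text of the series calls biological replicates. Separate cultures are stated nowhere, so p-values rest on a spread that may be technical. Lines IP20D-3, IP36D-3 and IP14D-1 are induced pluripotent stem (iPS) cells of the strain label B6 x D2 F1, and IP14D-101 is an iPS line labelled B6 x 129S2 F1. The embryonic stem (ES) line R1 is labelled 129X1/SvJ x 129S1 F1, and the ES line ESC2 is labelled B6 x D2 F1, as are 3 of the iPS lines. All were grown with the cytokine LIF on a feeder layer of mouse embryonic fibroblasts whose division had been stopped with mitomycin C, with fetal bovine serum or its replacement; which medium each line received is not labelled. The fibroblasts from which the iPS lines were made are not analysed here. In bulk RNA, fewer cells that express a gene and less of its RNA in each cell cannot be told apart.

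The Dlk1-Dio3 domain is expressed according to parental origin. Meg3 (also called Gtl2), Rian and Mirg are long noncoding RNAs made from the maternal chromosome, all in the same orientation, and are often described as parts of one long transcript that starts at the Meg3 promoter. Rian carries a cluster of C/D small nucleolar RNAs and Mirg a large cluster of microRNAs. Dlk1 is made from the paternal chromosome and encodes a transmembrane protein with EGF repeats, related to the Notch ligands. Allelic expression across the domain is set by a differentially methylated region between Dlk1 and Meg3 that is methylated on the paternal copy. In mouse iPS cells, loss of the maternal noncoding RNAs is a known variation between lines and has been tied to reduced ability to contribute to chimaeras. RefSeq places 11 small nucleolar RNAs within Rian. A separate microRNA annotation places 3 hairpins within the RefSeq span of Rian and 10 within that of Mirg, on the plus strand. From Dlk1 to Dio3 that annotation lists 58 hairpins on either strand, none of which was measured as a mature microRNA here.

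On their brightest probe sets all 4 genes were lowest in IP20D-3 and IP36D-3, as described below, while the order of the other lines differed. The promoter windows of all 4 genes are therefore shown. Each runs from 250 bases before to 50 bases after the annotated start, on the plus strand of GRCm38.p6, from RefSeq, written 5′ to 3′. Capitals mark matches, on either strand, to 4 short motifs: the full cAMP response element TGACGTCA, the hexamer TGCCGC that the imprint guardian ZFP57 binds when methylated, CCAAT, and TATAAA.
Meg3, chr12:109540746-109541045: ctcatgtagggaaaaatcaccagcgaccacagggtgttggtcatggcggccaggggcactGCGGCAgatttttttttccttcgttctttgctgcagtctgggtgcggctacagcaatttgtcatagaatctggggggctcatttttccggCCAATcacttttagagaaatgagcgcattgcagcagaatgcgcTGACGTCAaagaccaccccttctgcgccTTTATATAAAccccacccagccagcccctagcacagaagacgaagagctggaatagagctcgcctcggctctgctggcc
Rian, chr12:109603695-109603994: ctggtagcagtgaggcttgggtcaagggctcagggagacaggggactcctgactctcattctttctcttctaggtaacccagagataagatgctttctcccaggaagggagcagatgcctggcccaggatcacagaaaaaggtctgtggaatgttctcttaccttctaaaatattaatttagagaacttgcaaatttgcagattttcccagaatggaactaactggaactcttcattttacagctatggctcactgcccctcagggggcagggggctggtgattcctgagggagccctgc
Mirg, chr12:109734731-109735030: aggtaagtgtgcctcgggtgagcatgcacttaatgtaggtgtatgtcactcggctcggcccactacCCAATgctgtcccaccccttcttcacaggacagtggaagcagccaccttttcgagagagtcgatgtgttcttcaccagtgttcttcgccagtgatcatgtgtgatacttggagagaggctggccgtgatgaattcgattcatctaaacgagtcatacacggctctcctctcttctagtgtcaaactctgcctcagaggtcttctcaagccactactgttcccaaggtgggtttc
Dlk1, chr12:109452573-109452872: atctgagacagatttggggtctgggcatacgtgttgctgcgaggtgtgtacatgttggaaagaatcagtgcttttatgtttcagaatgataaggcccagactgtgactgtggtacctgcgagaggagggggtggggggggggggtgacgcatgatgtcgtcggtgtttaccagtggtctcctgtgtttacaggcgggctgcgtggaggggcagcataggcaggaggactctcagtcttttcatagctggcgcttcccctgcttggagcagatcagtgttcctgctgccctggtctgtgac

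The Meg3 window held 13 CpG dinucleotides, against a median of 7 over 32851 promoter windows of the same length. It held a cAMP response element 57 to 50 bases before the start, CCAAT 100 to 96 bases before it, and 2 overlapping matches to TATAAA, from 29 to 24 bases before it on the minus strand and from 25 to 20 on the plus strand. The hexamer TGCCGC was matched on the minus strand, 190 to 185 bases before the start. TGACGTCA occurred in 1.79% of all windows, TGCCGC in 11.6%, TATAAA in 13.6% and CCAAT in 37.4%. The Mirg window held 10 CpG dinucleotides and CCAAT 184 to 180 bases before the start. The Dlk1 window held 9 CpG dinucleotides and the Rian window 0, and neither held a match to the 4 motifs. A second annotated Meg3 start, with the window chr12:109545148-109545447, held 1 CpG dinucleotide and no match. These matches are letters in the reference sequence, not measured binding sites.

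All lines carried the RNA of pluripotent cells. Of 16 pluripotency markers, such as Pou5f1, Nanog and Sox2, none had a line mean under the array median in any line. Array medians lay between 29.1 and 30.5 in linear intensity, which is 4.86 to 4.93 in log2. Arrays of the same line differed over all genes by a root mean square of 0.160 to 0.288 in log2. Where a gene is given by a single probe set, it is the one brightest on average. Levels are log2 intensities throughout, and differences are differences of log2 line means. The level of one probe set is not set against that of another.

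Meg3 was near the middle of the array's intensity range in IP20D-3 and IP36D-3, and among the brightest probe sets in the other 4 lines. Among the 34945 probe sets with a single symbol, its percentile averaged 48.2 in IP20D-3 and 56.2 in IP36D-3. It averaged 92.9 in IP14D-101, 97.4 in IP14D-1, 95.2 in R1 and 98.3 in ESC2. In IP20D-3 the 3 arrays read 5.33, 5.11 and 5.24, and in IP36D-3 they read 5.95, 6.0 and 5.76 (probe set 1439380_x_at). In IP14D-101 they read 9.87, 10.11 and 9.14, and in IP14D-1 10.81, 10.97 and 10.90. In R1 they read 10.22, 10.28 and 10.06, and in ESC2 11.30, 11.33 and 11.39. No array of IP20D-3 or IP36D-3 came within reach of any array of the other lines. The means were 5.23 ± 0.11 in IP20D-3, 5.90 ± 0.13 in IP36D-3, 9.71 ± 0.51 in IP14D-101, 10.89 ± 0.08 in IP14D-1, 10.19 ± 0.11 in R1 and 11.34 ± 0.04 in ESC2 (SD, n = 3 each). The Meg3 difference from ESC2 was -6.12 in IP20D-3 and -5.44 in IP36D-3. With 16 added to the intensities, which damps values near background, these were -5.61 in IP20D-3 and -5.11 in IP36D-3. It was -1.64 in IP14D-101, -1.16 in R1 and -0.45 in IP14D-1.

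In descending order, the Meg3 lines were ESC2, IP14D-1, R1, IP14D-101, IP36D-3 and IP20D-3. The arrays of R1 and IP14D-101 overlapped, and no other neighbours in this order did. The gap between IP14D-101 and IP36D-3 was 3.80, and every other gap was 0.71 or less. The suffix of this probe set marks probes that can also bind other sequences, and whether other RNA adds to its level was not tested. The other Meg3 probe sets are therefore given beside it.

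**Figure D1:**
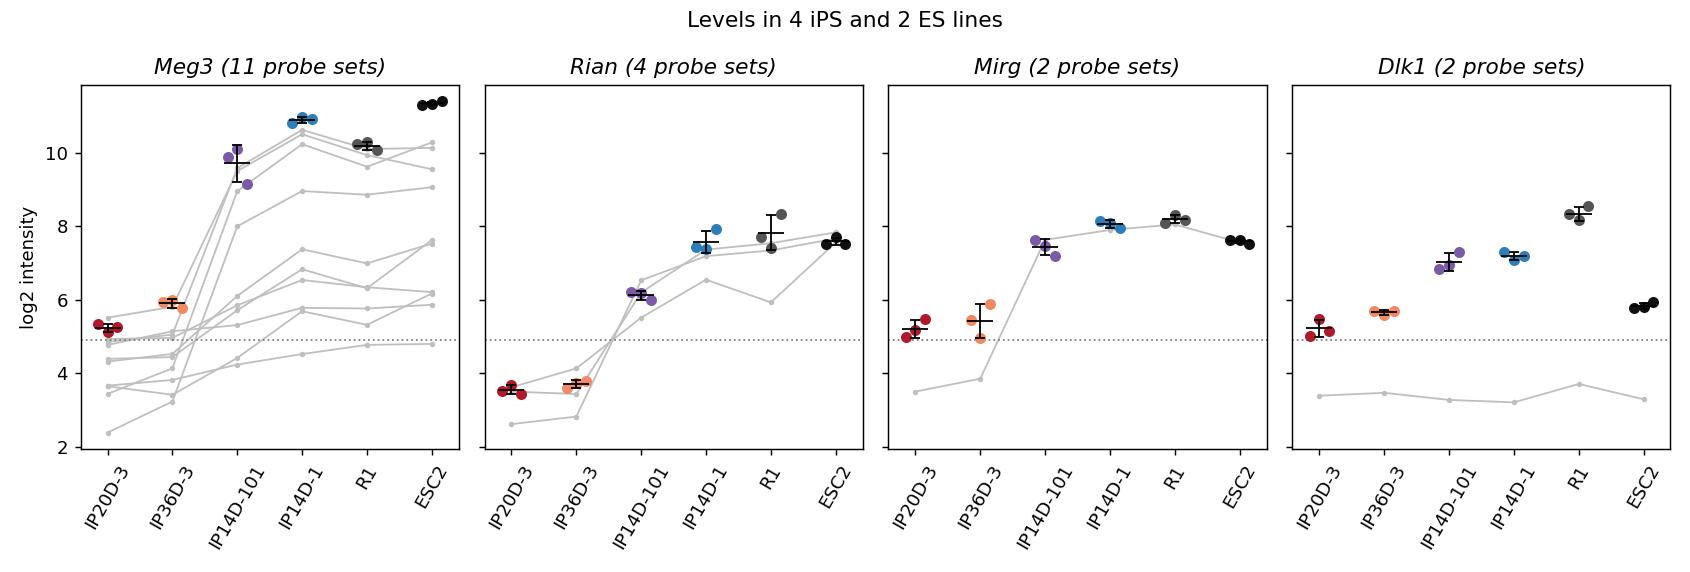
Level of each gene in each line, in log2 intensity on the vertical axis, with the 6 lines on the horizontal axis. Coloured points are the 3 arrays of a line for the gene's brightest probe set, with the line's mean and SD, grey points are line means of the gene's other probe sets, and the dotted line is the mean array median. Meg3, Rian and Mirg are lowest in IP20D-3 and IP36D-3, and Dlk1 is highest in R1.

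All 11 Meg3 probe sets were lower in IP20D-3 than in ESC2, and likewise in IP36D-3, with no overlap of arrays. The widest difference came from probe set 1452905_at, which read 3.51, 3.43 and 3.36 in IP20D-3 and 4.34, 4.22 and 3.84 in IP36D-3. The same probe set read 9.21, 9.22 and 8.42 in IP14D-101, 10.11, 10.38 and 10.20 in IP14D-1, 9.54, 9.76 and 9.55 in R1, and 10.29, 10.29 and 10.26 in ESC2. The difference from ESC2 on it was -6.84 in IP20D-3 and -6.14 in IP36D-3. Probe set 1436713_s_at gave the same picture, with 2.32, 2.29 and 2.54 in IP20D-3 and 3.09, 3.32 and 3.28 in IP36D-3, against 9.14, 9.0 and 9.04 in ESC2. The difference from ESC2 was -6.68 in IP20D-3 and -5.83 in IP36D-3. On both probe sets these lines lay under the array median, so the differences are no measured folds of RNA. The smallest differences were -1.09 in IP20D-3 and -0.72 in IP36D-3, both on 1436057_at.

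Many of these probe sets were dim in IP20D-3 and IP36D-3. Probe sets were ranked on each array among the 34945 with a single symbol, whose median is higher than the array median given above. In IP20D-3 the mean rank lay under the middle for 10 of 11 Meg3 probe sets, 4 of 4 Rian and 2 of 2 Mirg probe sets. Of these, Meg3 1439380_x_at at 5.23 and Mirg 1440097_at at 5.21 lay above the array median. In IP36D-3 these counts were 9 of 11, 4 of 4 and 1 of 2, and in ESC2 they were 1 of 11, 0 of 4 and 0 of 2. The cut for these counts is thus higher than the array median used elsewhere in this text. Where a mean is this low, the size of a difference depends on how background was handled.

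Rian was lowest in IP20D-3 and IP36D-3 and intermediate in IP14D-101. On 1452899_at the IP20D-3 arrays read 3.52, 3.68 and 3.45, those of IP36D-3 read 3.60, 3.73 and 3.79, and those of IP14D-101 read 6.20, 6.17 and 5.99. It read 7.43, 7.37 and 7.92 in IP14D-1, 7.70, 7.41 and 8.34 in R1, and 7.53, 7.70 and 7.52 in ESC2. The arrays of R1, ESC2 and IP14D-1 overlapped, as did those of IP36D-3 and IP20D-3, and IP14D-101 overlapped with neither set of lines. The means were 3.55 ± 0.12 in IP20D-3, 3.71 ± 0.10 in IP36D-3, 6.12 ± 0.11 in IP14D-101, 7.57 ± 0.30 in IP14D-1, 7.82 ± 0.48 in R1 and 7.58 ± 0.10 in ESC2 (SD, n = 3 each). The difference from ESC2 was -4.04 in IP20D-3, -3.88 in IP36D-3 and -1.47 in IP14D-101. With 16 added to the intensities it was -2.91 in IP20D-3, -2.84 in IP36D-3 and -1.28 in IP14D-101. The largest Rian difference was on 1428055_at, which read 2.51, 2.41 and 2.93 in IP20D-3 and 2.74, 2.77 and 2.94 in IP36D-3, against 7.50, 7.84 and 7.65 in ESC2. All 4 Rian probe sets were lower in IP20D-3, IP36D-3 and IP14D-101 than in ESC2 with no overlap of arrays.

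Mirg was also lowest in IP20D-3 and IP36D-3, and IP14D-101 was close to ESC2. On 1440097_at the IP20D-3 arrays read 4.99, 5.18 and 5.46, those of IP36D-3 read 5.45, 4.95 and 5.87, and those of IP14D-101 read 7.62, 7.47 and 7.19. It read 8.15, 8.10 and 7.95 in IP14D-1, 8.09, 8.30 and 8.16 in R1, and 7.61, 7.63 and 7.52 in ESC2. R1 and IP14D-1 overlapped at the top, ESC2 and IP14D-101 overlapped below them, and IP36D-3 and IP20D-3 overlapped at the bottom. The means were 5.21 ± 0.24 in IP20D-3, 5.42 ± 0.46 in IP36D-3, 7.43 ± 0.22 in IP14D-101, 8.06 ± 0.11 in IP14D-1, 8.18 ± 0.11 in R1 and 7.59 ± 0.06 in ESC2 (SD, n = 3 each). The difference from ESC2 was -2.38 in IP20D-3 and -2.16 in IP36D-3 on this probe set. On the second one, 1457030_at, it was -4.05 in IP20D-3, where the arrays read 3.72, 3.20 and 3.57, and -3.70 in IP36D-3, where they read 3.67, 4.17 and 3.71, against 7.47, 7.65 and 7.54 in ESC2. The size of the Mirg difference in these lines thus depended on the probe set, and its direction did not.

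**Figure D2:**
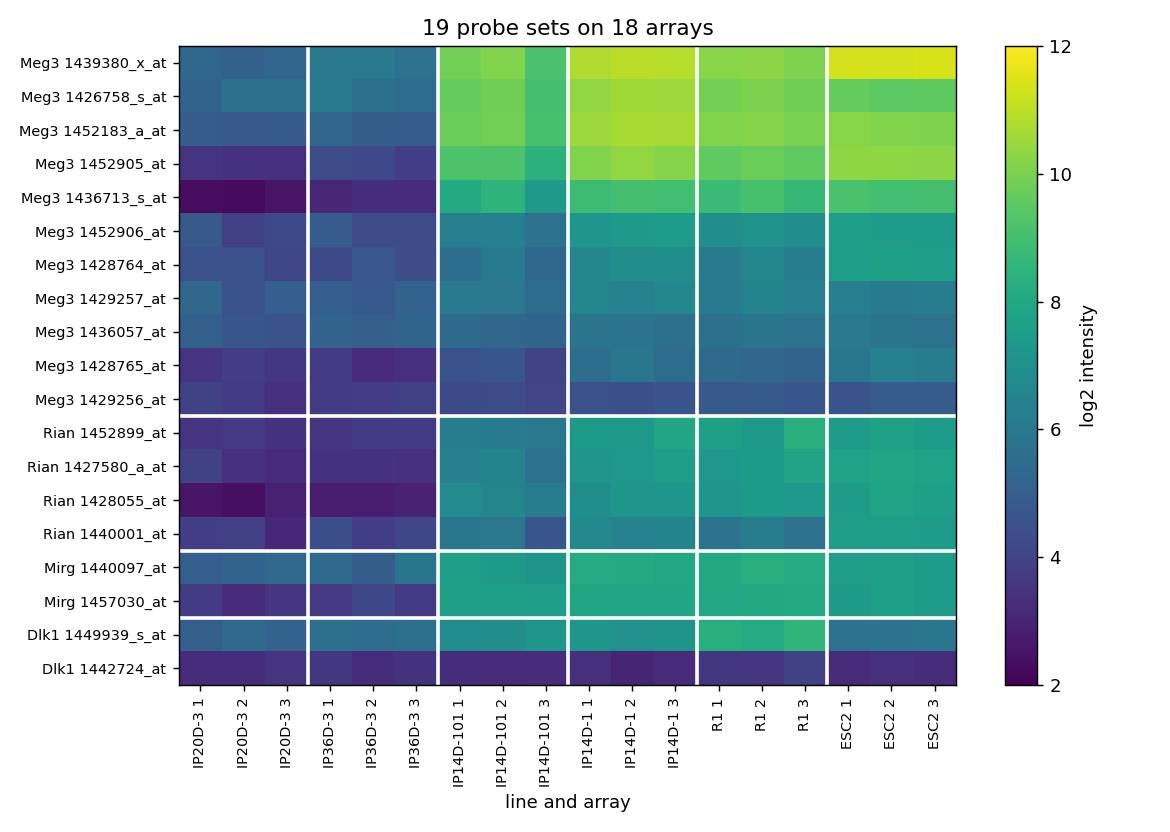
Level of each of the 19 probe sets, in rows grouped by gene, on each of the 18 arrays, in columns grouped by line, with colour giving the log2 intensity. The rows of Meg3, Rian and Mirg that are bright in ESC2 are dark on all 6 arrays of IP20D-3 and IP36D-3.

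Taken over the 17 noncoding probe sets, 17 were lower in IP20D-3 than in ESC2 with no overlap of arrays, where 24.8% of all 34945 probe sets were. For IP36D-3 against ESC2 it was 17 of 17, where 20.1% of all probe sets were. These counts describe the values that led to the genes being chosen. The median difference was -4.04 in IP20D-3 and -3.70 in IP36D-3, beside a median over all genes of 0.01 in IP20D-3 and 0.05 in IP36D-3. In IP14D-1, 6 of 17 lay below ESC2 and 5 above it without overlap, where 24.9% of all probe sets were lower and 27.2% higher. In R1, 7 lay below ESC2 and 3 above it without overlap, where 24.8% of all were lower and 36.7% higher. These contrasts share the ESC2 arrays. The ratio of the 3′ to the 5′ actin probe set, a measure of RNA integrity and labelling, was 1.28 ± 0.02 in IP20D-3, 1.26 ± 0.02 in IP36D-3, 1.14 ± 0.03 in IP14D-101, 1.27 ± 0.02 in IP14D-1, 1.13 ± 0.01 in R1 and 1.53 ± 0.04 in ESC2 (SD, n = 3 each). IP14D-1, where Meg3 was high, and IP20D-3 and IP36D-3, where it was low, had nearly the same ratio. The 18S ribosomal probe set read 178.3 to 539.5 in linear intensity in IP20D-3, 160.6 to 242.3 in IP36D-3, 37.8 to 46.5 in IP14D-101, 71.7 to 88.5 in IP14D-1, 50.5 to 60.2 in R1 and 203.1 to 230.1 in ESC2. It was high in IP20D-3 and IP36D-3 but also in ESC2, where Meg3 was highest. The part of RNA quality in these levels was not tested.

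IP20D-3 and IP36D-3 were close to each other. IP20D-3 was lower than IP36D-3 on 15 of the 17 noncoding probe sets, but on only 4 of them without overlap of arrays, where 22.7% of all probe sets were. The median difference between them was -0.21. The gap on 1439380_x_at was -0.68.

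Between iPS and ES lines taken as line means, the iPS lines were spread widely. Meg3 averaged 7.93 ± 2.79 over the 4 iPS lines and 10.76 ± 0.82 over the 2 ES lines (SD over lines). Rian averaged 5.24 ± 1.95 over the iPS lines and 7.70 ± 0.16 over the ES lines. Mirg averaged 6.53 ± 1.43 over the iPS lines and 7.89 ± 0.42 over the ES lines. The highest iPS line, IP14D-1, lay within 0.45 of ESC2 and above R1 for Meg3, above ESC2 for Mirg, and just below both ES lines for Rian.

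The Meg3 probe sets did not rank the brighter lines alike. On 1439380_x_at ESC2 was the highest line, with IP14D-1 0.45 and R1 1.16 below it. On 1426758_s_at, made from the sequence record Y13832, IP14D-1 was 0.95 and R1 0.38 above ESC2, with means of 10.50 ± 0.11 in IP14D-1, 9.93 ± 0.10 in R1 and 9.55 ± 0.07 in ESC2 (SD, n = 3 each). On 1452183_a_at, from the same record, IP14D-1 was 0.49 above ESC2 and R1 was 0.03 below it. Between IP14D-1 and R1, 8 of the 17 noncoding probe sets were higher and 2 lower in IP14D-1 without overlap of arrays, where 19.1% of all were higher and 30.3% lower. The order of ESC2, IP14D-1 and R1 therefore depends on the probe set, and the place of IP20D-3 and IP36D-3 below all of them does not.

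IP14D-101 held less of the noncoding RNAs than the other iPS line that expressed them. All 17 probe sets were lower in IP14D-101 than in IP14D-1 without overlap of arrays, where 18.6% of all probe sets were. The differences ran from -1.46 to -0.27, with a median of -1.03. Against R1, the other line with 129 ancestry in its label, all 17 were lower and 14 did not overlap, where 15.5% of all probe sets were lower without overlap. Against ESC2, 16 of 17 were lower and 14 did not overlap, where 24.9% of all probe sets were. The exception was Mirg 1457030_at, 0.07 above ESC2.

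The third array of IP14D-101 stood apart from the other 2. It was the lowest of the 3 on 17 of 17 noncoding probe sets, where 29.8% of all probe sets had their lowest value on it. Its deviation from the mean of the other 2 had a median of -0.55 on these probe sets, ranging from -1.28 to -0.06, beside a median of 0.06 over all probe sets. On Dlk1 the same array deviated upwards, by 0.41. It was also the array farthest from the others of its line over all genes, by 0.265, where the other 17 arrays ranged from 0.135 to 0.217. Without it, the median difference on the 17 probe sets was -0.77 from IP14D-1 and -0.98 from ESC2, with 17 of 17 and 15 of 17 lower. Without it, 16 of 17 were lower than R1, with a median of -0.43 in place of -0.60, and the Meg3 difference from ESC2 was -1.35 in place of -1.64. The labels give no batch that would set this array apart.

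**Figure D3:**
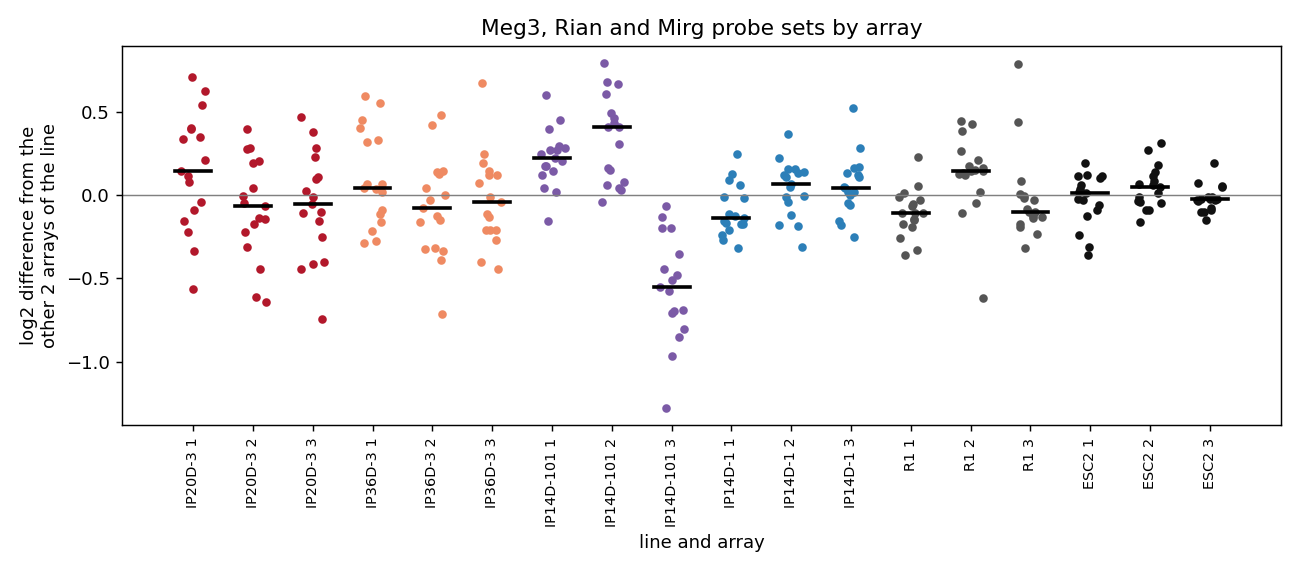
Deviation of each array from the mean of the other 2 arrays of its line, in log2, with 1 point for each of the 17 Meg3, Rian and Mirg probe sets and a black bar for their median, and the 18 arrays along the horizontal axis. The third array of IP14D-101 has all 17 points below 0.

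On its brightest probe set Dlk1, like the noncoding RNAs, was lowest in IP20D-3 and IP36D-3, but it was also low in ESC2. On 1449939_s_at the IP20D-3 arrays read 5.02, 5.47 and 5.15, those of IP36D-3 read 5.69, 5.58 and 5.69, and those of IP14D-101 read 6.85, 6.93 and 7.30. It read 7.30, 7.07 and 7.19 in IP14D-1, 8.32, 8.16 and 8.54 in R1, and 5.79, 5.80 and 5.93 in ESC2. R1 was highest and clear of all other lines, IP14D-1 and IP14D-101 overlapped below it, and ESC2, IP36D-3 and IP20D-3 followed without overlap. The means were 5.22 ± 0.23 in IP20D-3, 5.65 ± 0.06 in IP36D-3, 7.02 ± 0.24 in IP14D-101, 7.19 ± 0.12 in IP14D-1, 8.34 ± 0.19 in R1 and 5.84 ± 0.08 in ESC2 (SD, n = 3 each). R1 was 5.65-fold, IP14D-1 2.54-fold and IP14D-101 2.27-fold higher than ESC2, while IP36D-3 was 1.14-fold and IP20D-3 1.54-fold lower. Against IP14D-1, IP20D-3 was lower by -1.97 and IP36D-3 by -1.53, both without overlap of arrays. The order of lines differed from that of Mirg only in ESC2 and IP14D-101, which overlapped for Mirg. ESC2 thus had the highest Meg3 of the 6 lines on the probe set used for that gene, together with a Dlk1 level near that of IP36D-3. The second Dlk1 probe set, 1442724_at, lay under the array median in all 6 lines, with means between 3.21 and 3.71. On it R1 was again highest, but IP14D-1 was lowest at 3.21, and IP20D-3 (3.39) and IP36D-3 (3.47) were not lowest.

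The other measured genes in and beside the domain differed less from ESC2 than Meg3, Rian and Mirg did in IP20D-3 and IP36D-3. From Evl to Rcor1, 25 genes other than the 4 were measured, and none was lower than ESC2 by more than 0.60 in IP20D-3 or by more than 0.38 in IP36D-3. Several of them lay under the array median already in ESC2, such as Degs2 at 3.58 and Gm33628 at 3.17, and had little room to fall. The nearest measured gene on the Dlk1 side was Wdr25, at 0.50 ± 0.08 above ESC2 in IP20D-3 and 0.17 ± 0.08 above it in IP36D-3 (limma standard error). On the far side of Mirg came first the noncoding RNA 3110009F21Rik, which at 2.61 in ESC2 lay under the array median. After it came Dio3os, the RNA antisense to the deiodinase gene Dio3. Dio3os averaged 4.73 ± 0.20 in IP20D-3, 4.69 ± 0.04 in IP36D-3, 5.18 ± 0.18 in IP14D-101, 4.87 ± 0.20 in IP14D-1, 5.06 ± 0.08 in R1 and 4.68 ± 0.17 in ESC2 (SD, n = 3 each), close to the array median in every line. Begain, Rtl1 and Dio3, the other protein-coding genes in and next to the domain, are not analysed here, nor is Traf3.

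Of a list of 21 neighbouring genes, 17 were measured and tested in limma, with a gene called at a Benjamini-Hochberg adjusted p under 0.05 over all 18193 genes and a log2 difference of at least 1. In IP20D-3, 2 rose and 0 fell against ESC2, where 5.22% of all genes rose and 3.38% fell. These were Wars, a tryptophan tRNA synthetase, at 9.72 ± 0.03 in IP20D-3 and 8.68 ± 0.05 in ESC2 (SD, n = 3 each; difference 1.04 ± 0.09, limma adjusted p = 1.81e-08), and the zinc finger gene Zfp839 (1.16 ± 0.10, limma adjusted p = 2.43e-08). With the arrays set to equal medians the Wars difference was just under 1. In IP36D-3, 0 of 17 were called in limma, where 3.38% of all genes were, with 7 at an unadjusted p under 0.05 and 4 at an adjusted p under 0.05. In IP14D-101, 2 rose and 0 fell, where 4.67% of all genes rose and 4.06% fell: Ankrd9 by 1.50 ± 0.12 (limma adjusted p = 6.18e-09) and Rcor1, a subunit of the CoREST repressor complex, by 1.10 ± 0.11 (2.07e-07). Of the 2 other Rcor1 probe sets, 1 went the same way. In IP14D-1, 0 of 17 were called in limma, where 3.44% of all genes were, with 12 at an unadjusted p under 0.05. In R1, 1 rose and 0 fell, where 4.38% of all genes rose and 3.75% fell. That gene was Ankrd9, at 6.35 ± 0.04 in R1 and 5.05 ± 0.27 in ESC2 (SD, n = 3 each; difference 1.29 ± 0.12, limma adjusted p = 4.70e-08). The median difference of the 17 genes from ESC2 was 0.01 in IP20D-3, 0.05 in IP36D-3, 0.37 in IP14D-101, 0.12 in IP14D-1 and 0.19 in R1, beside 0.01, 0.05, 0.15, 0.06 and 0.15 for all genes.

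**Figure D4:**
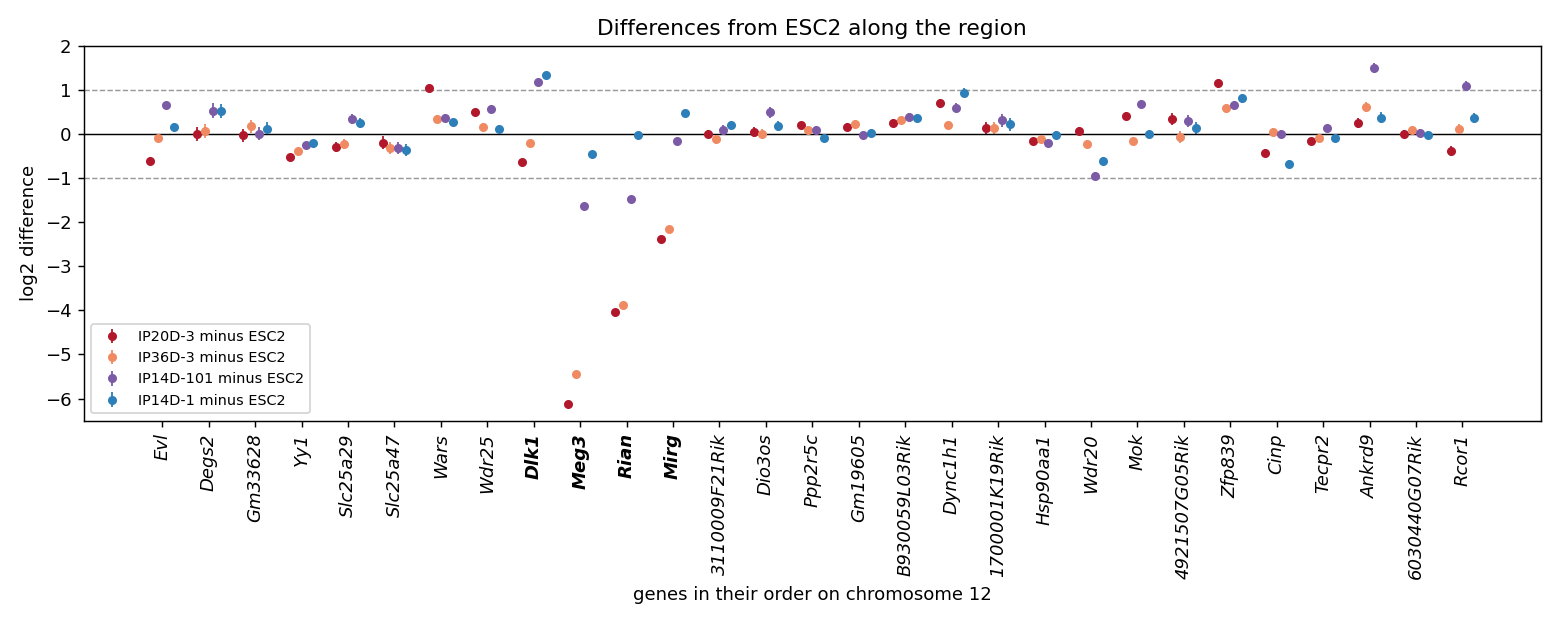
Log2 difference from ESC2 of the measured genes from Evl to Rcor1, in the order in which they lie on the chromosome, for each of the 4 iPS lines. Bars on genes other than Meg3, Rian, Mirg and Dlk1 are limma standard errors and dashed lines mark differences of 1 in each direction. Meg3, Rian and Mirg lie far below their neighbours in IP20D-3 and IP36D-3.

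Factors that set or guard imprinted methylation, or belong to Polycomb, differed between lines. All 23 genes of this list were measured. In IP20D-3, 1 rose and 2 fell against ESC2, where 5.22% of all genes rose and 3.38% fell. The de novo methyltransferases Dnmt3a, at 7.94 ± 0.09 in IP20D-3 and 9.61 ± 0.10 in ESC2, and Dnmt3b, at 10.43 ± 0.04 in IP20D-3 and 12.06 ± 0.03 in ESC2, were lower (SD, n = 3 each). The differences were -1.67 ± 0.12 for Dnmt3a (limma adjusted p = 1.75e-09) and -1.63 ± 0.07 for Dnmt3b (limma adjusted p = 3.98e-12). Tet2, which oxidises methylcytosine, rose by 1.61 ± 0.13 (limma adjusted p = 1.40e-08). In IP36D-3, 0 of 23 were called in limma, where 3.38% of all genes were, with 17 at an unadjusted p under 0.05 and 16 at an adjusted p under 0.05, none of them by a log2 difference of 1. There Dnmt3a averaged 10.20 ± 0.03 and Dnmt3b 11.83 ± 0.04 (SD, n = 3 each). Between the 2 lines, IP20D-3 was lower than IP36D-3 in Dnmt3a by -2.26 ± 0.12 (limma adjusted p = 1.31e-10), in Dnmt3b by -1.40 ± 0.07 (6.76e-11) and in Dppa3, which protects the maternal genome from demethylation after fertilisation, by -1.02 ± 0.07 (2.68e-09). Tet2 was higher by 1.09 ± 0.13 (limma adjusted p = 3.34e-06). In this contrast 2.36% of all genes rose and 1.89% fell, and Meg3, Rian and Mirg were low in both lines.

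Zfp57, the zinc finger protein that binds the methylated hexamer at imprinted control regions, had the widest range of line means in this list. Its level was 7.11 ± 0.21 in IP20D-3, 7.03 ± 0.06 in IP36D-3, 9.57 ± 0.04 in IP14D-101, 8.70 ± 0.09 in IP14D-1, 8.86 ± 0.12 in R1 and 6.26 ± 0.05 in ESC2 (SD, n = 3 each). It was lower in IP20D-3 than in IP14D-1 by -1.59 ± 0.09 (limma adjusted p = 5.26e-10) and lower in IP36D-3 than in IP14D-1 by -1.67 ± 0.09 (limma adjusted p = 8.26e-10). ESC2, with the highest Meg3, had the lowest Zfp57. Against ESC2, Zfp57 rose by 3.32 ± 0.09 in IP14D-101 (limma adjusted p = 1.09e-13), by 2.45 ± 0.09 in IP14D-1 (1.26e-11) and by 2.60 ± 0.09 in R1 (5.95e-13). In the contrast of IP20D-3 with IP14D-1, 1 of the 23 rose and 3 fell, where 2.80% of all genes rose and 2.15% fell. In that of IP36D-3 with IP14D-1, Zfp57 was the 1 gene called, where 1.89% of all genes rose and 1.50% fell.

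In IP14D-101, 3 of the 23 rose and 1 fell against ESC2, where 4.67% of all genes rose and 4.06% fell. Besides Zfp57, the histone H3K9 methyltransferase Ehmt2 rose by 1.57 ± 0.10 (limma adjusted p = 9.42e-10) and the maintenance methyltransferase Dnmt1 by 1.04 ± 0.07 (1.56e-09). The Dnmt1 difference was under 1 with equal array medians, with array weights and without replicate 3. Zfp445, a second zinc finger protein of imprinted regions, fell by 1.40 ± 0.17 (limma adjusted p = 1.67e-06). Its arrays in IP14D-101 were widely spread, at 9.09 ± 0.53 (SD, n = 3). The Zfp445 difference was -1.58 without replicate 1, -1.55 without replicate 2 and -1.07 without replicate 3. In IP14D-1, Zfp57 was the 1 gene called, where 2.08% of all genes rose and 1.36% fell. In R1, 2 rose and 4 fell, where 4.38% of all genes rose and 3.75% fell. Those that fell included Dppa3, at 6.65 ± 0.06 in R1 and 9.22 ± 0.07 in ESC2 (SD, n = 3 each; -2.57 ± 0.07, limma adjusted p = 1.66e-14), and Tet1 (-1.37 ± 0.15, limma adjusted p = 4.70e-07). The median difference of the 23 genes from ESC2 was 0.07 in IP36D-3, 0.07 in IP14D-101, 0.08 in IP14D-1 and -0.24 in R1.

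Notch pathway genes were taken because the Dlk1 protein is a non-canonical ligand of Notch receptors, and 22 of 23 were measured. In IP20D-3, 2 rose and 1 fell against ESC2, where 5.22% of all genes rose and 3.38% fell. Hes1, a repressor induced by Notch, rose by 1.14 ± 0.10 (limma adjusted p = 3.20e-08), and Rbpj, the DNA-binding partner of Notch, by 1.06 ± 0.08 (limma adjusted p = 4.18e-09), a difference of 0.98 without replicate 2. Jag1, a ligand, fell by 1.29 ± 0.09 (limma adjusted p = 2.38e-09). In IP36D-3, Hes1 alone was called, at 8.37 ± 0.19 in IP36D-3 and 6.98 ± 0.07 in ESC2 (SD, n = 3 each; 1.39 ± 0.10, limma adjusted p = 1.41e-08), where 1.91% of all genes rose and 1.47% fell.

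In IP14D-101 and R1, where Dlk1 was higher than in ESC2, the receptor Notch4 was higher too. Notch4 averaged 7.24 ± 0.17 in IP14D-101, 6.41 ± 0.19 in R1 and 4.77 ± 0.10 in ESC2 (SD, n = 3 each), a rise of 2.48 ± 0.12 in IP14D-101 (limma adjusted p = 3.61e-11) and of 1.64 ± 0.12 in R1 (limma adjusted p = 5.92e-09). The receptor Notch3 rose by 1.28 ± 0.09 in IP14D-101 (limma adjusted p = 1.35e-09). IP14D-101 thus had 2 of 22 higher and 0 lower, where 4.67% of all genes rose and 4.06% fell. In R1, 3 rose and 1 fell, where 4.38% of all genes rose and 3.75% fell. Notch4, the glycosyltransferase Lfng (1.60 ± 0.10, limma adjusted p = 4.54e-10) and the gamma-secretase subunit Ncstn (1.09 ± 0.12, 5.34e-07) rose, and the protease Adam10 fell by 1.37 ± 0.10 (3.71e-09). The 1 other Ncstn probe set went the opposite way. In IP14D-1, where Dlk1 was also higher than in ESC2, 0 of 22 were called in limma, where 3.44% of all genes were, with 19 at an unadjusted p under 0.05. Notch4 averaged 5.63 ± 0.15 in IP14D-1 (SD, n = 3). The median difference of the 22 genes from ESC2 was -0.21 in IP20D-3, 0.02 in IP36D-3, 0.18 in IP14D-101, 0.14 in IP14D-1 and 0.25 in R1.

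Fibroblast genes are given because the feeder layer is a second source of RNA in these cultures. The summed linear intensity of 27 of 28 fibroblast markers was 4057.6 to 4360.1 in IP20D-3, 3233.0 to 3397.5 in IP36D-3, 4006.3 to 4289.2 in IP14D-101, 6935.3 to 7291.4 in IP14D-1, 7824.7 to 8575.9 in R1 and 4321.0 to 4887.1 in ESC2. The sum was lowest in IP36D-3 and highest in R1, which also had the highest Dlk1. IP14D-101 had a sum below that of ESC2 and a Meg3 level far above that of IP20D-3, whose sum was close to its own. A linear sum gives most weight to the brightest markers. The mean log2 intensity of the 27 markers was 4.91 in IP20D-3, 5.09 in IP36D-3 and 5.38 in IP14D-101. It was 6.03 in IP14D-1, 5.72 in R1 and 5.74 in ESC2, so IP20D-3 and IP36D-3 were lowest on this measure, as for Meg3. Against ESC2, 1 of 27 rose and 8 fell in IP20D-3, where 5.22% of all genes rose and 3.38% fell. In IP36D-3, 0 rose and 8 fell, where 1.91% of all rose and 1.47% fell. In IP14D-101, 2 rose and 7 fell, where 4.67% of all rose and 4.06% fell. In IP14D-1, 2 rose and 0 fell, where 2.08% of all rose and 1.36% fell. In R1, 2 rose and 4 fell, where 4.38% of all rose and 3.75% fell.

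The 7 defining fibroblast markers, Col1a1, Col1a2, Col3a1, Thy1, Postn, Dcn and Lum, were dim. Their summed intensity was 118.9 to 129.0 in IP20D-3, 139.1 to 143.1 in IP36D-3, 138.4 to 164.8 in IP14D-101, 220.8 to 271.9 in IP14D-1, 155.0 to 165.7 in R1 and 216.2 to 240.6 in ESC2. The number with a mean under the array median was 7 in IP20D-3, 6 in IP36D-3, 6 in IP14D-101, 2 in IP14D-1, 4 in R1 and 4 in ESC2. Their sum was thus lower in IP20D-3 and IP36D-3 than in ESC2 and IP14D-1, as were Meg3, Rian and Mirg, while IP14D-101 and R1 had low sums with high Meg3. The part of feeder RNA in the levels of Meg3, Rian, Mirg and Dlk1 was not tested. Of 12 primitive and visceral endoderm markers, the summed intensity was 3753.3 to 4039.8 in IP14D-101 and at most 1780.8 on any array of the other lines, and its part in the IP14D-101 levels was not tested.

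**Figure D5:**
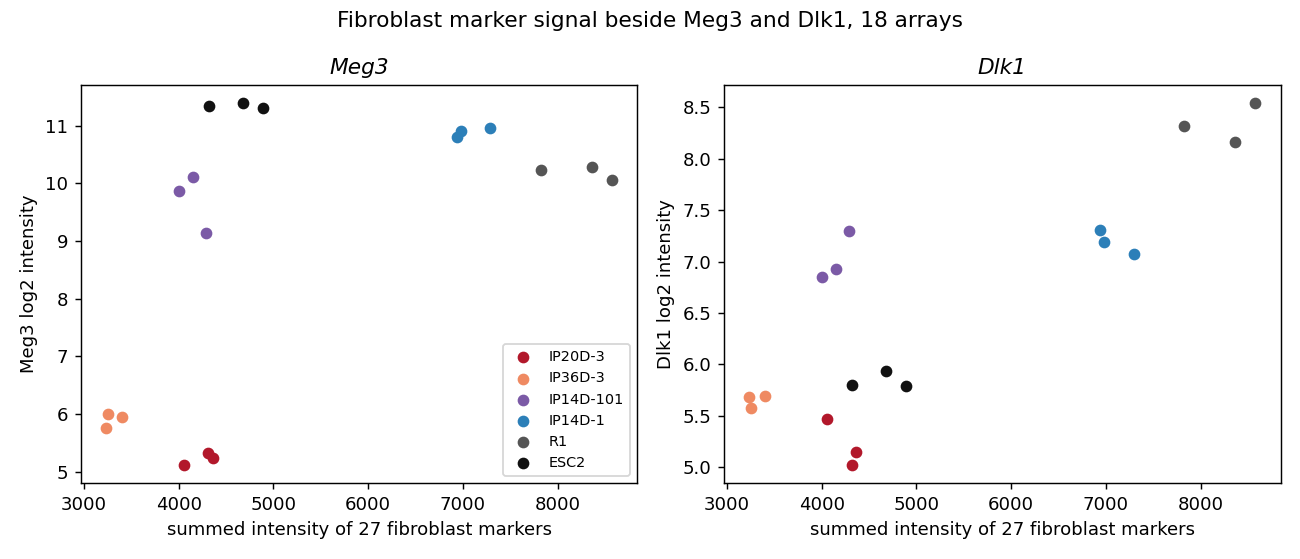
Level of Meg3 and of Dlk1 on each array, in log2 intensity on the vertical axes, against the summed linear intensity of 27 fibroblast markers on the same array on the horizontal axis, with points coloured by line. R1 has the highest sum and the highest Dlk1, and the arrays of IP14D-101 and IP20D-3 have similar sums and far apart Meg3 levels.

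The genes with the most similar profile were sought over the 6 line means, each profile centred on its own mean, among 9952 genes whose highest line mean was at least 6. The measure of likeness was the root mean square difference in log2. For Meg3, whose line means spanned 6.12, the 5 nearest were Rian (0.78), Rbm45 (1.03), Tmem87a (1.27), Mirg (1.29) and Prss23 (1.30). For Rian, which spanned 4.27, they were Rbm45 (0.42), Tmem87a (0.63), Thbs1 (0.65), Mirg (0.67) and Meg3 (0.78). Thbs1, thrombospondin, is also in the fibroblast list. For Mirg, which spanned 2.98, they were Tmem87a (0.28), Rbm45 (0.42), the cell cycle inhibitor Cdkn1a (0.46), the imprinted gene Nnat (0.48) and the small heat shock gene Cryab (0.52).

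Rbm45, which encodes an RNA-binding protein, stood nearer to Rian than any gene of the domain did. It averaged 6.06 in IP20D-3, 6.43 in IP36D-3, 8.70 in IP14D-101, 9.07 in IP14D-1, 9.90 in R1 and 9.60 in ESC2. Tmem87a, a transmembrane protein gene, averaged 4.82 in IP20D-3, 4.51 in IP36D-3, 6.82 in IP14D-101, 7.07 in IP14D-1, 7.76 in R1 and 7.36 in ESC2. Each rests on 1 probe set. For Dlk1, which spanned 3.12, the nearest were the integrin gene Itga3 (0.17), Tgfb1 (0.31), Mtch1 (0.33), Pdlim7 (0.36) and Tent5b (0.37). Itga3 averaged 6.92 in IP20D-3, 7.54 in IP36D-3, 8.36 in IP14D-101, 8.82 in IP14D-1, 10.03 in R1 and 7.38 in ESC2. In the order for Dlk1, Mirg (0.70) was the 337th gene, Rian (1.25) the 7186th and Meg3 (1.92) the 9898th. In the order for Mirg, Rian (0.67) was the 14th gene, Dlk1 (0.70) the 24th and Meg3 (1.29) the 5383rd. Mirg thus stood about as near to Dlk1 as to Rian on its brightest probe set, 1440097_at. The other Mirg probe set, 1457030_at, with a wider difference of -4.05 from ESC2 in IP20D-3, was not used in this order and could give another one. Profiles were centred but not scaled, so these ranks depend on how widely the line means spanned as well as on their pattern. Meg3 spanned more than the other 3 genes, and its far ranks need not mean an unlike pattern. With 6 points and 9952 genes, close profiles turn up for many genes, so these are descriptions only.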

How the data were processed

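RNA was measured on 18 arrays, 3 for each of 6 mouse cell lines, grouped by the labelled line. The deposited intensities are on a linear scale and were made by the authors with RMA, per the submitters' processing notes and the design text. RMA corrects background, normalises by quantiles and summarises probes into probe sets, so it forces alike distributions on all arrays and can compress low values. No source used here gives its version. Depth has no meaning for arrays, and the number of arrays limits the precision.

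Of 45101 probe sets, 64 controls were left out. Symbols came from the platform annotation, and 34945 probe sets had 1 symbol, 932 several and 9160 none. Of those with 1, 34741 were found in RefSeq and 0 symbols changed. Intensities were taken to log2 without an offset. Each of 18193 genes was tested through its probe set with the highest mean, in limma 3.58.1 (R 4.3.3), as 1 model of 6 line means with 12 residual degrees of freedom and Benjamini-Hochberg adjustment over all genes. Tables and plots used pandas 2.3.3, numpy 2.4.6 and matplotlib 3.10.9 in Python 3.11.15. Simulated data for IP20D-3 against ESC2 held 18193 genes, 200 of them changed by 1.5 in log2. The fit recovered 99.5% of these with 0 false calls. The simulated noise had the spread between arrays of a line and no added variation between cultures. It therefore checks the fit only, and cannot show how many calls such variation would cause.

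The genes and lists were chosen with earlier results of these data known. Named genes are all probe sets of the 4 genes, called neighbours, up to 4 called genes per list and contrast by size, and the 5 nearest profiles for each of the 4 genes, leaving out clone and predicted symbols. Alternatives were other normalisations, an added intensity of 16, arrays left out, another choice of probe set, a filter on dim genes, other fits and no minimum difference. Arrays with the same replicate number did not deviate together (45 pairs, correlations -0.25 to 0.26, median 0.04), so the numbers were not taken to pair arrays.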

Additional observations from a re-analysis of the deposited data

How the results depend on the processing

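No called result changed direction. Uncalled Rian differences from ESC2 near 0 changed sign: in R1, 0.23 became -0.31 as the median over its probe sets and -0.06 without replicate 3, and in IP14D-1, -0.01 became 0.01 after repeated quantile normalisation, 0.03 without replicate 1 and 0.15 without replicate 2. The Meg3 difference from ESC2 was sensitive to how low values and probe sets are handled: with 16 added to the intensities it was -5.61 in IP20D-3 and -5.11 in IP36D-3; as the median over its 11 probe sets it was -3.23 in IP20D-3, -3.18 in IP36D-3, -1.06 in IP14D-101, -0.11 in IP14D-1 and -0.21 in R1. With 16 added, Rian was -2.91 in IP20D-3 and -2.84 in IP36D-3. Leaving out each replicate number in turn, the Meg3 difference ran from -6.18 to -6.06 in IP20D-3, -5.49 to -5.34 in IP36D-3, -1.84 to -1.33 in IP14D-101, -0.49 to -0.43 in IP14D-1 and -1.21 to -1.07 in R1. Leaving out the third IP14D-101 array, a choice made after seeing the data, gave -1.35.

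With no minimum difference, the neighbours called against ESC2 were 10 in IP20D-3, 4 in IP36D-3, 13 in IP14D-101, 9 in IP14D-1 and 13 in R1, the imprint factors 13, 16, 17, 13 and 17, and the Notch genes 14, 14, 13, 16 and 15, in the same order of lines. With equal array medians, 1 neighbour was called in IP20D-3 and 1 Notch gene in IP14D-1. With dim genes left out, 1 neighbour and 1 Notch gene were called in IP14D-101, and 0 neighbours and 2 Notch genes in R1. With 16 added, 0 neighbours were called in R1. Repeated quantile normalisation gave 5 Notch genes in IP20D-3, and array weights with a trend gave 1 in IP14D-1. Leaving out each replicate number gave 0 to 1 neighbours, 1 to 2 imprint factors and 0 to 1 Notch genes in IP14D-1, and 1 to 2 neighbours in R1. Ankrd9 in R1 had a difference of 0.98 with 16 added, and Ncstn in R1 had 0.94 with 16 added and 0.95 without replicate 1. The causes were not tested, beyond fewer genes or arrays in the fit.

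Over all genes in IP36D-3 against ESC2, 347 were called higher and 268 lower, and after repeated quantile normalisation 242 higher and 303 lower. In IP36D-3 against IP14D-1 these were 344 higher and 273 lower, and 250 higher and 335 lower; in IP20D-3 against IP14D-1, 510 higher and 392 lower, and 407 higher and 479 lower. With the replicate number as a replicate block, all 44 tested results kept their direction and side of the threshold, and 2 neighbours were still called in IP20D-3. The numbers are not known to pair arrays.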
